A study of Mus musculus with 8 samples.

Results

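The choroid plexus epithelium is the sheet of secretory cells that covers the folds of the choroid plexus inside the brain ventricles, where it produces cerebrospinal fluid and separates it from the blood. It pumps ions and bicarbonate across its apical face, passes water through aquaporins, seals its cell borders with tight junctions and secretes carrier proteins such as transthyretin. The lateral ventricle, with the choroid plexus inside it, borders the hippocampus. A set of 38 genes known from this epithelium was followed in mouse hippocampal polyA-RNA sequencing, out of 40659 genes in the count table and 17252 that passed the filter on low counts. The 38 genes were chosen by the spread of their counts between the hippocampi of this series, so their spread over the libraries is given as a description, without a test. All 38 were found by symbol and all 38 passed the filter.

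PolyA-RNA was sequenced from the whole hippocampi of 8 male C57BL/6JRj mice, with 1 library per mouse. Every mouse had been injected stereotactically at postnatal week 7 to 8 with a recombinant adeno-associated virus (rAAV) into the dorsal and ventral hippocampus, and tissue was taken 4 weeks later, with an age of 12 to 13 postnatal weeks in the sample labels. In 4 mice (hp708) the virus carried a miR-708-5p hairpin under the human synapsin promoter, which is active in neurons and is not directed at the choroid plexus, and in the other 4 (hpCTL) it carried a control hairpin. There was no uninjected group. The comparison asks which hippocampal transcripts differ when miR-708-5p is overexpressed.

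Total counts ran from 22606824 to 28462428 per library. The Mir708 gene had 0 counts in all 8 libraries, so these polyA counts hold no check of the hairpin. The mouse with animal number 1602 is labelled hp708 (hp708 1 here) in the deposited samples but is listed as hpCTL in the qPCR source data of the study, so the comparison of the groups is also given without this library. Between libraries of a group the counts differed by more than sampling noise, with a chi-square per degree of freedom of 10.04 to 46.2, so that no library was a copy of another. Counts are given as CPM, which scales each count to a common library total after TMM normalization. Intervals on a ratio of 2 libraries are exact 95% intervals that cover counting error only.

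The choroid plexus genes were far more abundant in 4 of the 8 libraries than in the other 4, and by the deposited labels each group held 2 libraries of either kind. With the other listing of hp708 1, 3 of the 4 high libraries would be hpCTL and only 1 would be hp708. In hpCTL 1 to 4 the 38 genes summed to 479, 3095, 673 and 3852 CPM, and in hp708 1 to 4 to 5320, 7376, 580 and 735 CPM. The libraries hpCTL 2, hpCTL 4, hp708 1 and hp708 2 were the 4 highest for 37 of the 38 genes, the exception being Car12, whereas 476 of the 17252 genes tested (2.76%) had these 4 on top. The highest library was hp708 2 for 30 genes and hp708 1 for 8, and the lowest was hpCTL 1 for 26, hp708 3 for 8, hpCTL 3 for 3 and hp708 4 for 1. Below the top 2, hpCTL 4 ranked 3rd for 34 genes and hpCTL 2 ranked 4th for 35. In bulk tissue, fewer epithelial cells and less RNA per cell cannot be told apart.

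**Figure D1:**
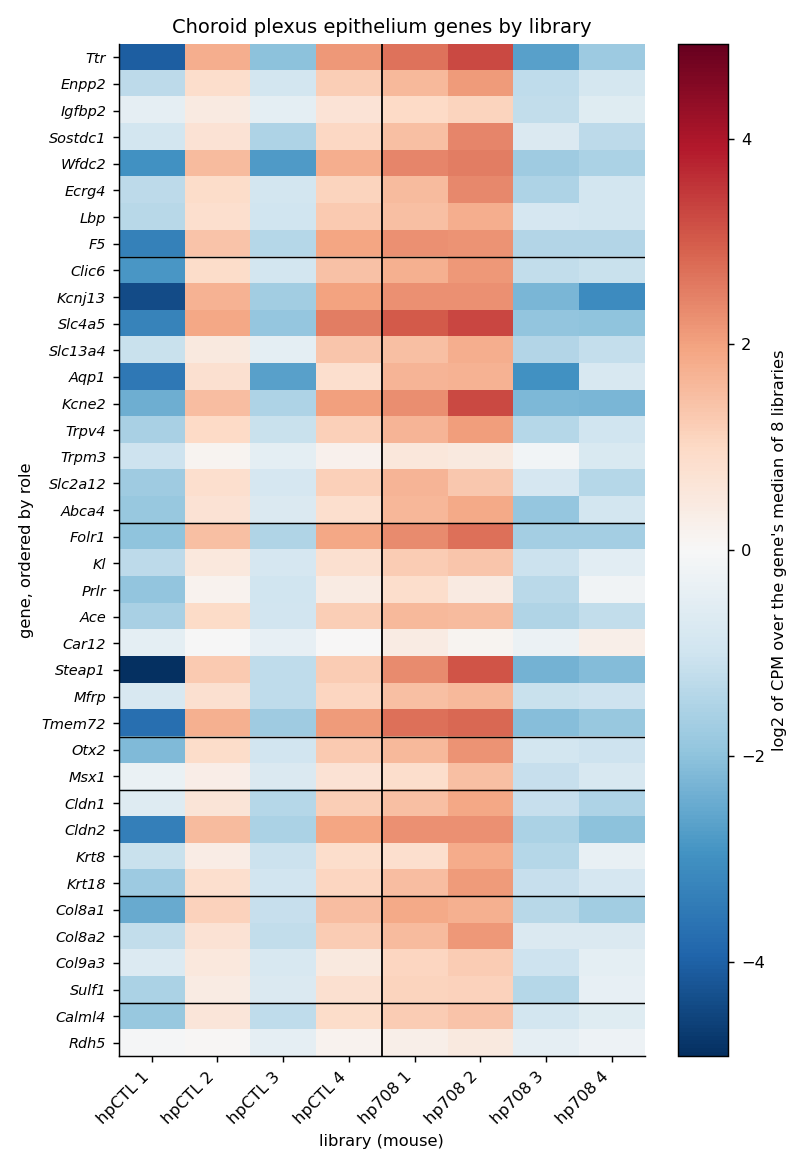
Heat map of the 38 choroid plexus epithelium genes (rows, ordered by role with black lines between roles) in the 8 libraries (columns, with a black line between hpCTL and hp708). Colour is the log2 of a gene's CPM over its own median of the 8 libraries, and hpCTL 2, hpCTL 4, hp708 1 and hp708 2 are above the median in 37 of the 38 rows.

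The step between the libraries was wide. Between the 4th and the 5th highest library the CPM fell by a median ratio of 3.11 over the 38 genes, against 1.03 over the 17185 tested genes with counts in every library. That step was the widest between neighbouring ranks for 31 of the 38 genes, against 1026 (5.97%) of the tested genes, and it was at least 2-fold for 28 genes, against 0.512% of the tested genes. From the lowest to the highest library the 38 genes differed by a median of 11.6-fold, where the median over all tested genes was 1.47-fold. At least 5-fold was reached by 33 of the 38 genes and by 5.19% of all genes tested. In hpCTL 1, 13 of the 38 genes were below 1 CPM, in the libraries hpCTL 3, hp708 3 and hp708 4 there were 5, 7 and 7, and in the remaining 4 there were 0.

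**Figure D2:**
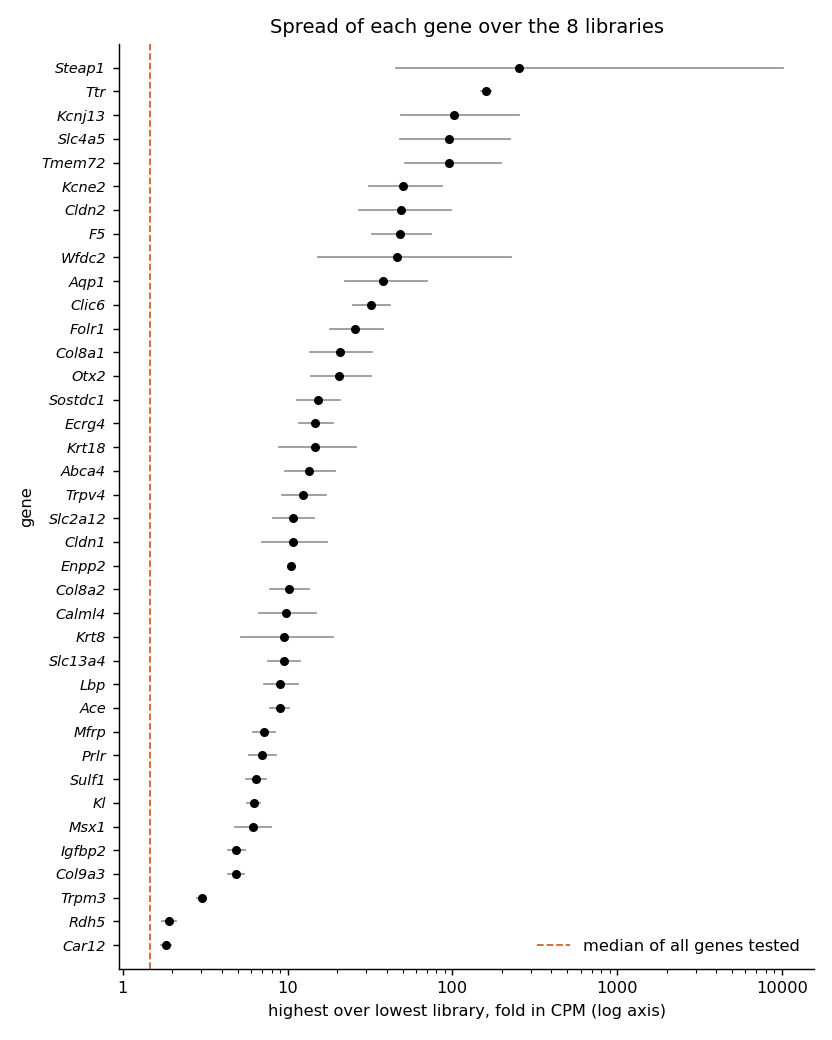
Fold between the highest and the lowest of the 8 libraries for each of the 38 genes (points, log axis) with the exact 95% interval from counting error (grey lines). The dashed line is the median of all genes tested, 1.47, and the genes run from Car12 at 1.83-fold to Steap1 at 256-fold, whose lowest library had 1 count.

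Of the 8 secreted carriers and signals, Ttr set the range. Ttr encodes transthyretin, the carrier of thyroxine and retinol-binding protein in cerebrospinal fluid and the best known transcript of this epithelium. Its CPM was 25.6, 1483, 105 and 1870 in hpCTL 1 to 4, and 2740, 4102, 67.7 and 124 in hp708 1 to 4. In each group 2 libraries had over 10 times the Ttr of the other 2, so the groups overlap over most of the range. The highest library had 160-fold the CPM of the lowest (95% interval 149 to 173). By TPM, which is scaled per length, Ttr was the 10th most abundant gene in hp708 1 and hp708 2 and the 3034th in hpCTL 1. Its share of the summed CPM of the 38 genes was 5.34% in hpCTL 1 and 55.6% in hp708 2.

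Enpp2, which encodes autotaxin, the enzyme that forms lysophosphatidic acid, was second to Ttr among the 38 genes by the TPM of the highest library, while in hpCTL 1 it exceeded Ttr, at 91.9 against 59.2 TPM. It had 178, 799, 231 and 1005 CPM in hpCTL 1 to 4 and 1312, 1870, 184 and 240 CPM in hp708 1 to 4, a spread of 10.5-fold. The ratio of Ttr to Enpp2 in CPM lay between 1.86 and 2.19 in hpCTL 2, hpCTL 4, hp708 1 and hp708 2 and between 0.144 and 0.517 in the other 4, so the 2 transcripts did not keep 1 ratio over all 8 libraries. Igfbp2, a binding protein of insulin-like growth factors, had 26.1, 47.7, 25.1 and 55.5 CPM in hpCTL 1 to 4 and 70.4, 74.4, 15.2 and 23.5 CPM in hp708 1 to 4. Its range of 4.89-fold was the narrowest of the 8 secreted factors. The other secreted genes had the same 4 libraries on top, though not in one order: F5, coagulation factor V, ranged from 0.892 to 42.8 CPM, Wfdc2 from 0.107 (3 counts) to 4.91 CPM, Sostdc1, an antagonist of BMP and Wnt signals, from 1.97 to 29.9 CPM, Ecrg4, the precursor of augurin, from 3.19 to 47.1 CPM, and Lbp, the lipopolysaccharide-binding protein, from 3.03 to 27.4 CPM.

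The 10 channels and transporters, which carry the ion and water fluxes of fluid secretion, spread from 3.01-fold for Trpm3 to 102-fold for Kcnj13. Kcnj13 encodes the apical potassium channel Kir7.1 and had 0.250, 17.5, 1.598 and 20.9 CPM in hpCTL 1 to 4 and 25.4, 25.5, 1.11 and 0.619 CPM in hp708 1 to 4. Its 4 higher libraries lie close together, and the lowest rests on 7 counts, which puts the 102-fold at 49.2 to 255 by counting error. Slc4a5, the sodium bicarbonate cotransporter NBCe2, had the widest step of all members, 10.5 CPM in its 4th highest library against 0.738 in the 5th. Kcne2, a potassium channel subunit whose gene lies on chromosome 16 as does Clic6, ranged from 0.606 to 30.5 CPM.

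Aqp1, the apical water channel, had 0.499, 9.96, 0.902 and 10.1 CPM in hpCTL 1 to 4 and 18.5, 18.9, 0.724 and 3.30 CPM in hp708 1 to 4. For Aqp1 hp708 4 stood between the others, 3.02-fold below the 4th library and above hpCTL 1, hpCTL 3 and hp708 3. Clic6, of the chloride intracellular channel family, had 2.28, 31.1, 8.81 and 45.4 CPM in hpCTL 1 to 4 and 55.5, 73.0, 7.24 and 7.76 CPM in hp708 1 to 4, a 32.0-fold range. Trpm3, a cation channel gene also known from neurons, had a high floor, with 55.0, 122, 80.2 and 132 CPM in hpCTL 1 to 4 and 165, 159, 104 and 66.7 CPM in hp708 1 to 4. Its 4th and 5th libraries differed by only 1.18-fold. The remaining transporters were Slc13a4 (sulfate), Trpv4 (a calcium-permeable cation channel), Slc2a12 (the glucose transporter GLUT12) and Abca4 (a retinoid lipid transporter), which ranged over 9.46-fold, 12.5-fold, 10.8-fold and 13.5-fold.

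Among the 8 receptors and surface proteins, Folr1, the folate receptor that moves folate into cerebrospinal fluid, had 1.14, 12.6, 1.598 and 16.7 CPM in hpCTL 1 to 4 and 22.7, 29.4, 1.41 and 1.40 CPM in hp708 1 to 4. The 4 lower libraries of Folr1 differ little from one another, and the 4th library was 7.90-fold above the 5th. Kl, which encodes the FGF23 co-receptor klotho, had 22.1, 77.4, 29.9 and 92.5 CPM in hpCTL 1 to 4 and 127, 138, 25.6 and 36.7 CPM in hp708 1 to 4. Ace, the angiotensin-converting enzyme, had 9.03, 52.6, 13.9 and 62.5 CPM in hpCTL 1 to 4 and 80.9, 78.5, 9.71 and 11.8 CPM in hp708 1 to 4. Kl and Ace ranged over 6.22-fold and 8.97-fold, less than Folr1 at 25.8-fold.

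Prlr, the prolactin receptor, had 4.60, 20.2, 9.06 and 23.6 CPM in hpCTL 1 to 4 and 32.4, 24.2, 7.03 and 15.5 CPM in hp708 1 to 4. Here hp708 4 was close to hpCTL 2, and the 4th and 5th libraries differed by 1.30-fold. Car12, a membrane-bound carbonic anhydrase, is the member that left the common order: it had 44.8, 61.3, 46.8 and 63.5 CPM in hpCTL 1 to 4 and 81.7, 69.3, 51.6 and 76.6 CPM in hp708 1 to 4. The second highest library of Car12 was hp708 4, one of the lower libraries of most other members, and its whole range was 1.83-fold. Steap1, of a metalloreductase family, ranged from 0.0357 CPM, which is 1 count, to 9.12 CPM, a ratio of 256 whose interval runs from 45.4 to 10146. Mfrp and Tmem72 ranged over 7.20-fold and 94.8-fold.

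**Figure D3:**
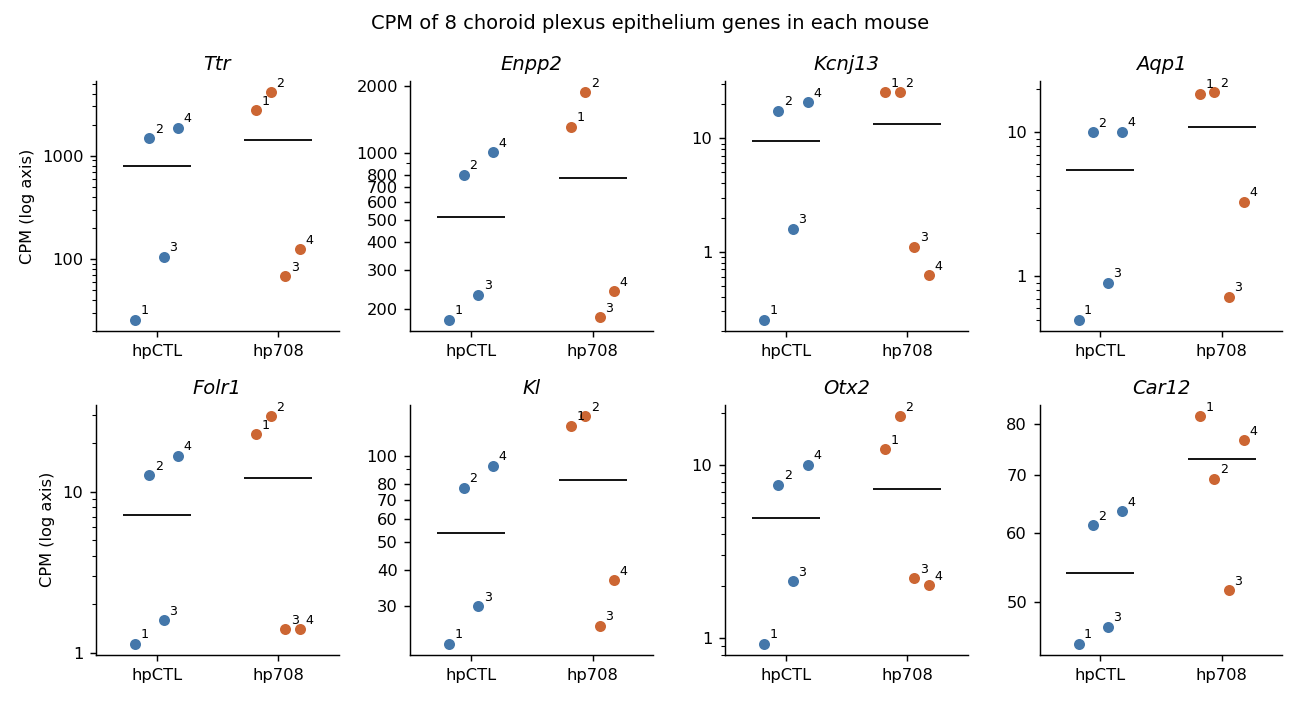
CPM of Ttr, Enpp2, Kcnj13, Aqp1, Folr1, Kl, Otx2 and Car12 in each of the 8 mice, on a log axis whose range differs between panels. Points are single libraries numbered by replicate, blue for hpCTL and orange for hp708, and black lines are the group medians. For 7 of the genes replicates 2 and 4 of hpCTL and 1 and 2 of hp708 are the upper points, and for Car12 hp708 4 is the second highest.

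The homeobox genes Otx2 and Msx1 encode transcription factors of this epithelium. Otx2 had 0.928, 7.69, 2.13 and 10.1 CPM in hpCTL 1 to 4 and 12.3, 19.2, 2.21 and 2.02 CPM in hp708 1 to 4, which is a 20.7-fold range with both groups spanning most of it. Msx1 ranged from 3.19 to 19.7 CPM. Of the claudins and keratins, Cldn2, which forms cation pores in leaky tight junctions, had 0.392, 11.7, 1.35 and 15.5 CPM in hpCTL 1 to 4 and 19.2, 18.8, 1.36 and 0.990 CPM in hp708 1 to 4. Krt18, the acidic partner of Krt8 in the keratin filaments of simple epithelia, had 0.571, 3.45, 1.02 and 4.05 CPM in hpCTL 1 to 4 and 5.61, 8.38, 0.894 and 1.11 CPM in hp708 1 to 4. Krt8, whose gene is next to Krt18 on chromosome 15, and Cldn1 ranged over 9.52-fold and 10.8-fold.

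In the matrix group, Col8a1, a chain of collagen VIII, had 0.856, 10.6, 2.17 and 13.6 CPM in hpCTL 1 to 4 and 17.7, 16.2, 1.87 and 1.49 CPM in hp708 1 to 4. Col8a2, the other chain of collagen VIII, Col9a3 and Sulf1, an extracellular heparan sulfate sulfatase, ranged over 10.2-fold, 4.87-fold and 6.41-fold. Calml4, a calmodulin-like protein, ranged from 1.07 to 10.5 CPM, and Rdh5, a retinol dehydrogenase, from 25.8 to 48.9 CPM. In the GENCODE annotation 70.7% of the exon bases of Rdh5 are shared with Bloc1s1 on the same strand, 37.1% of those of Mfrp with neighbours that include C1qtnf5, and 34.1% of those of Slc2a12 with Tbpl1 on the opposite strand. How reads in such bases were counted is not given in the sources used here, so the values of these 3 genes are uncertain.

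The members did not all rank the top 2 libraries alike. From hp708 1 to hp708 2 the CPM was higher for 23 of the 38 genes beyond counting error (interval above 1), lower for 3, and for 12 the interval holds 1. The highest ratios of hp708 2 over hp708 1 were those of Krt8 (2.00, interval 1.47 to 2.76), Kcne2 (1.99, 1.76 to 2.25), Sostdc1 (1.91, 1.69 to 2.16) and Ecrg4 (1.74, 1.59 to 1.92), while Ttr was at 1.50 (1.48 to 1.51). Kcnj13 (1.00, interval 0.896 to 1.12), Cldn2 (0.978, 0.859 to 1.11) and Ace (0.970, 0.911 to 1.03) were level between these 2 mice within counting error. The 3 genes that were lower in hp708 2 were Prlr (0.746, 0.670 to 0.831), Slc2a12 (0.772, 0.678 to 0.879) and Car12 (0.848, 0.794 to 0.904). From hpCTL 2 to hpCTL 4, 28 genes were higher beyond counting error, 0 were lower and 10 gave an interval that holds 1, with Slc13a4 at the largest ratio, 1.86 (1.63 to 2.12). Each of these ratios compares 2 libraries of 1 group, not the groups.

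Between hp708 and hpCTL, no member passed the test. With edgeR's quasi-likelihood test and 3 surrogate variables, which are estimated covariates for unknown sources of variation, 0 of 38 members were called at an FDR below 0.05 (Benjamini-Hochberg over 17252 genes), and 0.00580% of all genes were, which is 1 gene, the immunoglobulin segment Igkj1 with a log2 fold change of -0.90. The lowest FDR of a member was 0.594, for Car12. At an unadjusted p below 0.05 there was 1 member, Car12, where 7.70% of all genes passed that mark. Without surrogate variables 0 members were called by edgeR, out of 0.00% of all genes, and at an unadjusted p below 0.05 there was again 1 member, against 1.81% of all genes. No member had groups that did not overlap in CPM, against 1.51% of all genes.

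The fitted differences leaned upward, with a median near the median standard error with surrogate variables and below it without them. The log2 fold change of hp708 over hpCTL was above 0 for 35 of the 38 members with surrogate variables (46.8% of all genes) and for 38 of 38 without them (47.1% of all genes). Its median over the members was 0.24 with surrogate variables and 0.60 without, and -0.01 over all genes in both fits. The ependymal list of 10 genes leaned the same way, with 10 of 10 above 0 in both fits and medians of 0.25 and 0.39, and 0 called. So did a second list of choroid plexus genes, described below, with 21 and 23 of 28 above 0 (medians 0.08 and 0.16). CA neuron genes were above 0 for 5 of 6 in both fits (medians 0.11 and 0.10), and dentate genes for 4 of 6 (0.15 and 0.11). Fibroblast genes were above 0 for 4 and 5 of 10, and endothelial genes for 3 and 4 of 8. None of these lists held a call. Other lists leaned the other way, with 0 of 5 red blood cell genes above 0 in both fits (medians -0.33 and -0.35), 1 of 4 and 0 of 4 border macrophage genes (medians -0.57 and -0.18) and 2 and 3 of 8 thalamic genes (medians -0.14 and -0.09), and 0 called in each. The median standard error of the members was 0.26 and 0.79 in these fits, against 0.10 and 0.13 over all genes. The members share libraries and move together, so these 38 directions are not 38 separate observations. Without hp708 1, the mouse with 2 labels, the fit with surrogate variables had 4 of 38 members above 0 (48.7% of all genes) and a median of -0.33. It called 0 members, while 0.321% of all genes were called. In that fit 12 members had an unadjusted p below 0.05, all 12 lower in hp708, against 6.72% of all genes in that direction, and the lowest FDR was 0.0871, for Kcnj13 at a log2 fold change of -1.72. Without hpCTL 2 the members lay on the other side: 38 of 38 were above 0 (46.2% of all genes), with a median of 0.73, and 0 were called while 0.0229% of all genes were. In that fit 31 members had an unadjusted p below 0.05, all 31 higher in hp708, against 2.88% of all genes in that direction, and the lowest edgeR FDR was 0.0752, for Ttr at a log2 fold change of 1.46 and for Enpp2 at 0.63. The direction of the members thus differed between these 2 fits, both with surrogate variables. Without surrogate variables the members leaned upward whichever library was left out. The lowest values there were 29 of 38 members above 0 and a median of 0.11, both without hp708 2.

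For Ttr the log2 fold change was 0.25 ± 0.50 (SE, n = 4 per group) with surrogate variables, at an FDR of 0.938 by edgeR, and 1.01 ± 1.40 without them, at an FDR of 0.999. Its mean log2 CPM was 8.20 ± 3.01 in hpCTL and 9.12 ± 3.03 in hp708 (SD, n = 4 each), and a two-sided exact permutation test of the difference of 0.91 gave p = 0.571, where 0.0286 is the smallest p that 4 against 4 allows. The SD within each group exceeded this difference. Without hp708 1 the difference was 0.15 (exact permutation p = 0.943), and the log2 fold change with surrogate variables turned to -0.80 (edgeR FDR 0.474). Enpp2 had a log2 fold change of 0.25 ± 0.20 (SE) with surrogate variables and 0.70 ± 0.79 without, with edgeR FDRs of 0.820 and 0.999. Igfbp2 was at 0.00 ± 0.14 (SE) in log2 with surrogate variables (edgeR FDR 0.997) and 0.25 ± 0.49 without. Without hp708 1 the fits with surrogate variables gave -0.25 for Enpp2 and -0.32 for Igfbp2 in log2 fold change. Without surrogate variables, the lowest values over fits with 1 library left out were 0.17 for Ttr, 0.06 for Enpp2 and -0.08 for Igfbp2. All of these came without hp708 2.

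The channels gave Clic6 a log2 fold change of 0.42 ± 0.26 (SE, edgeR FDR 0.751), Kcnj13 -0.21 ± 0.61 (0.955), Aqp1 0.59 ± 0.52 (0.837) and Trpm3 0.34 ± 0.18 (0.712). Kcnj13 was 1 of the 3 members below 0 with surrogate variables, beside Kcne2 at -0.08 and Slc13a4 at -0.01, and it was at 0.39 without them. For the receptors and enzymes the log2 fold changes were 0.12 ± 0.39 (SE, edgeR FDR 0.960) for Folr1, 0.33 ± 0.16 (0.706) for Kl, 0.41 ± 0.21 (0.712) for Prlr and 0.05 ± 0.24 (0.973) for Ace. Otx2 had 0.42 ± 0.29 (SE, edgeR FDR 0.778), Cldn2 0.14 ± 0.48 (0.961), Krt18 0.38 ± 0.27 (0.786) and Col8a1 0.17 ± 0.35 (0.940) in log2 fold change. Without hp708 1 the 12 genes given with an SE so far in this paragraph were all below 0 in log2 fold change with surrogate variables. They ran from -0.04 for Prlr to -1.72 for Kcnj13, and none was called. Without surrogate variables, Clic6, Aqp1, Trpm3, Folr1, Kl, Prlr, Otx2 and Krt18 stayed above 0 whichever library was left out. There Ace (-0.04), Cldn2 (-0.03) and Col8a1 (-0.06) were below 0 without hp708 1, and Kcnj13 (-0.14) was below 0 without hp708 2. Car12, singled out after its values were seen, had 0.35 ± 0.12 (SE, edgeR FDR 0.594) with surrogate variables and 0.37 ± 0.16 (0.999) without. With 1 library left out, Car12 ran from 0.27 to 0.48 with surrogate variables and from 0.29 to 0.49 without.

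**Figure D4:**
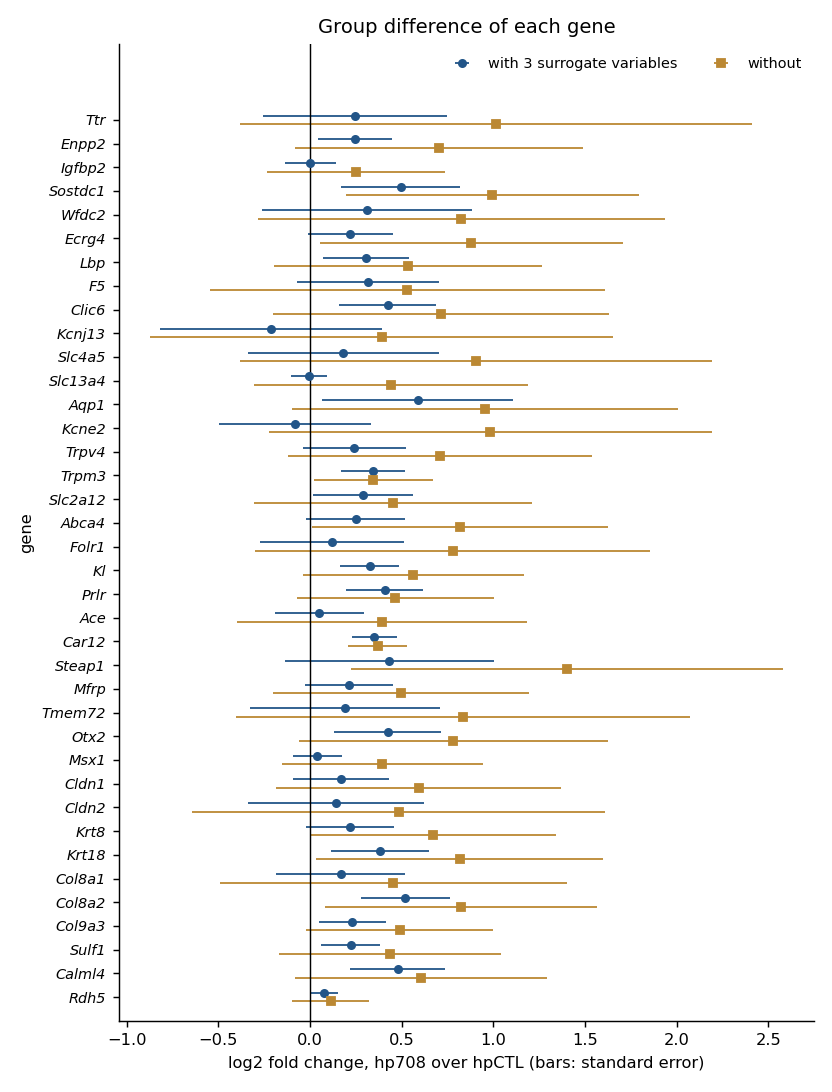
Log2 fold change of hp708 over hpCTL for each of the 38 genes, as blue circles with 3 surrogate variables and ochre squares without, with bars of 1 standard error (4 libraries per group). The median standard error is 0.26 in the first and 0.79 in the second, and 0 genes reach an FDR below 0.05 in either.

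Group membership described little of the variance of these genes and the surrogate variables most of it. The median share of the variance in log2 CPM (R squared) over the 38 members was 0.029 for the group alone, against 0.069 over all genes, and 0.0040 without hp708 1, against 0.082. For the 3 surrogate variables alone it was 0.932 over the members and 0.670 over all genes, and for both together 0.947 and 0.784. Together they gave an R squared above 0.9 for 35 of the 38 members and 4216 of the 17252 genes. The lowest value was 0.762, for Car12, followed by 0.833 for Trpm3. When the surrogate variables were estimated without 66 choroid plexus genes, they alone reached a median R squared of 0.524 over the members and 0.641 over all genes, and the median log2 fold change of the members was 0.68. These R squared values come from the libraries in which the surrogate variables were estimated and are a description.

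A second list of 30 choroid plexus epithelium genes outside the 38 was taken as a comparison, of which 28 passed the filter. The same 4 libraries were highest for 15 of these 28 genes, with 0 called between the groups. From the lowest to the highest library these genes differed by a median of 2.53-fold, and 6 of the 28 reached 5-fold, against 11.6-fold and 33 of the 38. Among these 28 the gene with the widest range was Slc16a8, a lactate transporter of this epithelium, whose lowest library held 1 count. It had 0.214, 2.36, 0.0820 and 2.96 CPM in hpCTL 1 to 4 and 4.67, 2.95, 0.0426 and 0.413 CPM in hp708 1 to 4. The transcription factor gene Lmx1a had 0.214 to 3.30 CPM over the 8 libraries. Atp1b1, a subunit gene of the sodium pump that neurons also express in quantity, ranged over only 1.20-fold. The summed CPM of the 30 genes, which includes Atp1b1, was level at 3097 to 3538. Without hp708 1 and with surrogate variables, 1 of these genes was called, while 0.321% of all genes were. It was Vat1l, at a log2 fold change of -0.61 ± 0.07 (SE, edgeR FDR 0.0276). On all 8 libraries Vat1l was at -0.04 with surrogate variables (edgeR FDR 0.968) and at 0.15 without them.

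Markers of other cell types were set beside the 38 genes. Of 10 ependymal genes, which mark the ciliated cells that line the ventricle, the same 4 libraries were highest for 3 (Mia, Tekt1 and Cfap126), and the list summed to 27.9 CPM in hpCTL 3 and up to 79.0 CPM in hp708 2, with none of its markers at 0. Foxj1, which drives formation of motile cilia, had 12.7, 15.3, 10.7 and 22.3 CPM in hpCTL 1 to 4 and 18.5, 29.7, 14.5 and 17.9 CPM in hp708 1 to 4. Of 10 fibroblast genes of the meninges and the plexus stroma, 1 (Igf2) had the same 4 libraries on top, and the list summed to 154, 213, 207 and 337 CPM in hpCTL 1 to 4 and to 395, 326, 123 and 140 CPM in hp708 1 to 4. The 3 highest sums of the fibroblast list were those of hp708 1, hpCTL 4 and hp708 2, each also among the 4 libraries with most Ttr. The part of ependyma and fibroblasts in the levels of the 38 genes was not tested.

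In the lists of endothelium (8 genes), border macrophages (4 of 6 tested), red blood cells (5), thalamus and habenula (8), CA pyramidal neurons (6) and dentate granule cells (6), 0 genes had the same 4 libraries on top. The endothelial list summed to 321 to 381 CPM, a narrow range beside the 479 to 7376 CPM of the 38 genes. The hippocampal lists were present in every library. The CA genes summed to 922, 816, 815 and 801 CPM in hpCTL 1 to 4 and to 802, 876, 993 and 1034 CPM in hp708 1 to 4, and the dentate genes to 304, 261, 293 and 246 CPM in hpCTL 1 to 4 and to 244, 277, 403 and 260.0 CPM in hp708 1 to 4. The 3 highest sums of the CA list (hp708 4, hp708 3 and hpCTL 1) and of the dentate list (hp708 3, hpCTL 1 and hpCTL 3) were all in libraries with low Ttr, and their part in the levels of the 38 genes was not tested. The thalamic list summed to 96.3 to 141 CPM and was highest in hp708 2.

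**Figure D5:**
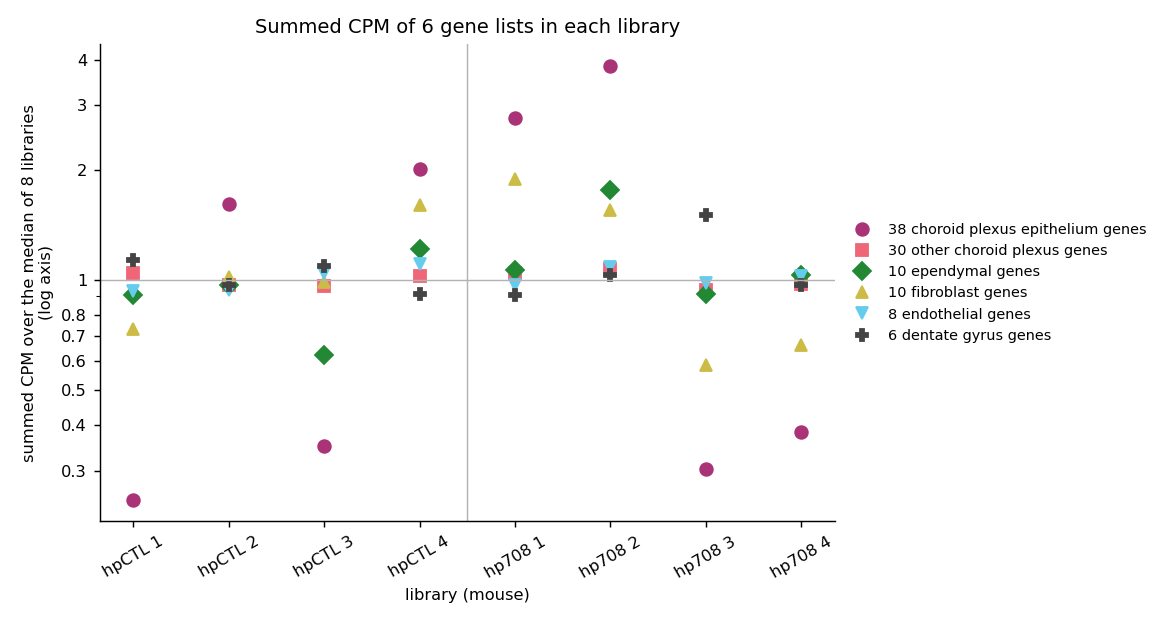
Summed CPM of 6 gene lists in each library, divided by the list's own median of the 8 libraries (log axis). The 38 choroid plexus epithelium genes (circles) run from 479 to 7376 CPM, the ependymal list (diamonds) from 27.9 to 79.0 CPM and the endothelial list (downward triangles) from 321 to 381 CPM.

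The hairpin is designed to raise miR-708-5p, which like other miRNAs pairs through its seed (bases 2 to 8) with sites in the 3′UTR of target transcripts. The seed is shown because it defines the sites counted here. The mature mouse sequence in RefSeq, with the seed in capitals, has 23 bases.
miR-708-5p: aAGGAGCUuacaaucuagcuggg

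A match to the seed was looked for in the longest 3′UTR of each gene (GENCODE, GRCm39): AGCTCCTA (8mer), AGCTCCT (7mer-m8) or GCTCCTA (7mer-A1), the last with an A opposite base 1. Of the 38 members 13 held at least 1 match (34.2%), against 26.5% of 14854 tested genes with a 3′UTR and 10.7% of the 28 other choroid plexus genes. None of the 13 held an 8mer. They were Ttr, Lbp, Aqp1, Folr1, Prlr, Car12, Mfrp, Tmem72, Msx1, Cldn2, Krt8, Col8a1 and Col8a2, with 3 matches in Prlr and 2 in Tmem72. None of the 13 was called between the groups, which follows from 0 calls among all 38 members and tells nothing about the matches. A match is a description of letters, not a shown target site. Matches of 4 members described above are given 5′ to 3′ with the 7 matching bases in capitals, with the bases on either side.
Aqp1, chr6:55324849-55324875 (+ strand): ccctggcttgtgAGCTCCTggctggat
Folr1, chr7:101507657-101507673 (- strand): tgAGCTCCTgttttacc
Krt8, chr15:101905333-101905359 (- strand): cttgccagcctgAGCTCCTgcagctgc
Prlr, chr15:10332934-10332960 (+ strand): tgatggaaaactAGCTCCTccattttc
Prlr, chr15:10336359-10336385 (+ strand): gcagatctccccAGCTCCTtgggtatt
Prlr, chr15:10336380-10336406 (+ strand): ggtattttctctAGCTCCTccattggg

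Because the transcription factor genes Otx2 and Msx1 moved with the other members over the libraries, their core motifs were looked for in RefSeq promoters (GRCm38.p6, 250 bases before to 50 after the transcript start). Promoters were given for 30 of the 38 members, without Ttr, Enpp2, Sostdc1, Lbp, Clic6, Folr1, Col9a3 and Sulf1. TAATCC, bound by Otx2, or its reverse complement was in a promoter of 4 of these 30 genes (13.3%), against 8.14% of 27025 genes. TAATTG, the Msx1 core, was found on either strand in 3 of the 30 (10%), against 9.22% of all genes, and the TAATTG and TAATCC letters share their first 4 bases. The windows of Abca4, Ace and Mfrp, 3 of the 4 with TAATCC, are shown with that motif in capitals, where GGATTA is the motif on the other strand, and the remaining gene was Otx2 itself.
Abca4, chr3:122044210-122044509 (+ strand): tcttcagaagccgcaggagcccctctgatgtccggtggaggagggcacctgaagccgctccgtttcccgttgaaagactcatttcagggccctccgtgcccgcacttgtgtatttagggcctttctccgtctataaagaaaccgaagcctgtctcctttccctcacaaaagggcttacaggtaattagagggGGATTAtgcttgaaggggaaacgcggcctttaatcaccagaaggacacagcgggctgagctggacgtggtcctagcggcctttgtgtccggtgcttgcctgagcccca
Ace, chr11:105967698-105967997 (+ strand): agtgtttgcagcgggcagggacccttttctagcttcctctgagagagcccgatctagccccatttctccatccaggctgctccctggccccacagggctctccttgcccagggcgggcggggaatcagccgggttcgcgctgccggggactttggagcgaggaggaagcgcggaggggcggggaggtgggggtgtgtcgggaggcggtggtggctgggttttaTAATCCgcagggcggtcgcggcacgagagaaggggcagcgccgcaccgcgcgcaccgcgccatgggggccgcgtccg
Mfrp, chr9:44101520-44101819 (+ strand): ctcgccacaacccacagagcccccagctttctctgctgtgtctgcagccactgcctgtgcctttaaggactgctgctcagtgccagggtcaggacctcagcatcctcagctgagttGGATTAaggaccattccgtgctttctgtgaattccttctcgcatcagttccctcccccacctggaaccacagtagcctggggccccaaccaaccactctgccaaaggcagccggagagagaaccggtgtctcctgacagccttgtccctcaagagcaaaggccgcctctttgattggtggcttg

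Abca4, Ace, Mfrp and Otx2, the 4 genes with TAATCC, differed 13.5-fold, 8.97-fold, 7.20-fold and 20.7-fold between their highest and lowest library, beside the median of 11.6-fold over the 38 genes.

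Genes outside all lists with the profile most like the mean of the members over the 8 libraries, by Pearson correlation of log2 CPM among genes with a mean of at least 1 CPM, were Prr32, Steap2, Gm44250, Rd3, Epn3, Slc24a5, Myo7a, Cgnl1, Drc7 and Wdr86. The coefficients are not given, because the libraries fall into 2 clusters that would set them. Prr32 had 0.464, 3.23, 0.902 and 3.60 CPM in hpCTL 1 to 4 and 5.87, 6.25, 0.767 and 1.03 CPM in hp708 1 to 4. Steap2, of the same family as Steap1, had 5.53, 14.2, 6.43 and 15.5 CPM in hpCTL 1 to 4 and 20.5, 25.2, 6.39 and 7.30 CPM in hp708 1 to 4. All 10 had the same 4 libraries on top, which largely follows from picking them by this profile. Their ranges ran from 1.76-fold (Myo7a) to 27.2-fold (Wdr86), and their lowest FDR between the groups was 0.595.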

How the data were processed

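PolyA-RNA libraries (TruSeq mRNA) of 8 hippocampi were analysed. The authors mapped reads to GRCm39 with STAR 2.7.8a, counted them per gene with featureCounts 1.6.4 and deposited raw counts without normalization, and their processing notes also name edgeR 3.32.1. Whether counting used strand or multi-mapped reads is not given in the sources used here. Samples were grouped by their labels, and all columns matched a listed animal.

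The 38 genes, the other gene lists and the tests were chosen with earlier results of these data known. Genes named with full statistics are 15 members fixed by name, any member called or with non-overlapping groups (there were none), the 10 most similar genes outside the lists, and Mir708. Car12, Igkj1 and Vat1l were added once their values had been seen.

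Of 40659 identifiers, 39641 were named from GENCODE. After filterByExpr, genes were tested in R 4.3.3 with edgeR 4.0.16 (quasi-likelihood fitted as in older edgeR, TMM, Benjamini-Hochberg adjustment) with 3 surrogate variables from svaseq (sva 3.50.0), as in the study's methods, which name the likelihood ratio test, while a legend names quasi-likelihood. Standard errors were derived from the fitted change and its test statistic. Log2 CPM used a prior count of 2, and TPM used the exon length of each gene. DESeq2 1.42.0 was an alternative. The functions were tested on simulated counts. With 4 libraries per group and totals of 22606824 to 28462428, relative counting error is largest for genes near or under 1 CPM. The SE of a group difference also holds the spread between libraries: it was 0.50 for the abundant Ttr and 0.24 for Krt8, with surrogate variables. The labels do not tell whether any cage or litter was shared. Same-numbered libraries of the groups did not deviate together (correlation of deviations -0.04 to 0.02), and the main fit did not pair them. A low correlation does not show that no cage or litter was shared.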

Additional observations from a re-analysis of the deposited data

Results flagged for a closer look

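Among 98 groups of 4 libraries checked for a single library far from the other 3 (the CPM of each of the 38 genes, the sums of the gene lists and the total counts), 1 stood apart, where chance gives about 4.9. It was the summed CPM of the CA pyramidal neuron list in hpCTL 1, at 922 CPM, while the other hpCTL libraries lay between 801 and 816 CPM. The same library was the lowest for 26 of the 38 choroid plexus genes, with 25.6 CPM of Ttr. None of the 38 genes had a library that stood apart from its group.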

How the results depend on the processing

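The count of members called stayed at 0 under every alternative, with a lowest FDR of 0.0752 (edgeR without hpCTL 2), then 0.0871 (without hp708 1), and with 0 to 31 members at an unadjusted p below 0.05 (31 without hpCTL 2, 12 without hp708 1). All genes called numbered 1 in the fit reported and 0 without surrogate variables (312 at an unadjusted p below 0.05), 127 by likelihood ratio, 96 by DESeq2 with surrogate variables and 2 without (Ighv1-55 and Igkv6-25), 12 when no filter was set, 0 if every library had to hold at least 10 counts, and 0 with surrogate variables estimated without choroid plexus genes, and leaving out 1 library gave 0 (without hpCTL 3) to 56 (without hp708 1). With at least 10 counts in every library 34 members remained, 23 of them above 0. With surrogate variables, leaving out 1 library moved the number of members above 0 from 4 (without hp708 1) to 38 (without hpCTL 2). Their median log2 fold change ran from -0.33 to 0.73 in the same fits. Without surrogate variables the number ran from 29 (without hp708 2) to 38. The median then ran from 0.11 (without hp708 2) to 1.14 (without hpCTL 4). Leaving out 1 library gave 0 or 1 call among the other choroid plexus genes (1 without hp708 1, with surrogate variables).

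Named members changed sign in 16 of 143 refits on all 8 libraries and in 56 of 256 with 1 library left out. Kcnj13, at -0.21 in the fit reported, was at 0.39 without surrogate variables in edgeR and in DESeq2, 0.0083 in DESeq2 with them, 0.41 with surrogate variables estimated without choroid plexus genes and 0.18 with the replicate block. Igfbp2 was at -0.0047 with the likelihood ratio test. Without a filter Igfbp2 was at -0.086, Folr1 at -0.078, Ace at -0.054 and Cldn2 at -0.078. With at least 10 counts in every library Ttr was at -0.0017, Igfbp2 at -0.0042, Folr1 at -0.19, Ace at -0.20, Cldn2 at -0.45 and Col8a1 at -0.32. None of these was called, and the cause was not tested. With the replicate block in place of surrogate variables 0 members and 1 gene (Ighv9-2) were called, and the median log2 fold change of the members was 0.47.
Over refits that each dropped 1 library, both with surrogate variables and with none, the log2 fold change ran from -0.80 to 1.71 for Ttr, from -0.25 to 1.16 for Enpp2, from -0.32 to 0.55 for Igfbp2, from -0.36 to 1.36 for Clic6, from -1.72 to 1.04 for Kcnj13, from -0.19 to 1.61 for Aqp1, from -0.097 to 0.55 for Trpm3, from -0.88 to 1.43 for Folr1, from -0.12 to 0.93 for Kl, from -0.039 to 0.82 for Prlr, from -0.71 to 0.85 for Ace, from -0.22 to 1.33 for Otx2, from -1.13 to 1.18 for Cldn2, from -0.15 to 1.26 for Krt18 and from -0.90 to 1.04 for Col8a1. With surrogate variables the lowest value of each of these came without hp708 1 and the highest without hpCTL 2.
The permutation test of Ttr and the R squared of the group without hp708 1 were added after seeing the data. Other scalings left 95 of 96 CPM means and ratios within their error, the exception being the highest over lowest ratio of Enpp2 (10.8 with the total count alone, 10.5 as reported). Depth limits the genes whose lowest library has few counts, among them Steap1 (1 count), Wfdc2 (3), Kcnj13 (7), Slc4a5 (8) and Tmem72 (10). The same holds for Slc16a8 of the second list (1 count).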
